A study of Homo sapiens with 2 samples.

Results

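The 30 genes described here make cholesterol and fatty acids or control that synthesis. They were taken by symbol from a table of 50867 gene rows, and each symbol matched 1 row. They comprise 8 enzymes of the mevalonate and isoprenoid steps, 11 enzymes from squalene to cholesterol, 5 enzymes of fatty acid synthesis, 5 regulators of the SREBP system and the sterol carrier STARD4. Expression was measured by RNA sequencing of HCT116, an established human colorectal carcinoma cell line, transfected either with an siRNA against PHF5A or with a control siRNA. PHF5A is a subunit of SF3b, the spliceosome part that binds the branch point of introns. The series asks which transcripts depend on PHF5A in these cells. Each group had 1 library, with 25897412 counts for the PHF5A knockdown and 26552789 for the control, so no difference below has a replicate check and no p-value is given. The siRNA sequence and the time after transfection are not given in the labels, and with 1 siRNA its effects on other transcripts cannot be told apart from those of PHF5A loss.

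Cholesterol is built from acetyl-CoA through mevalonate and squalene, and the mevalonate branch also supplies the farnesyl and geranylgeranyl groups that anchor proteins to membranes. Fatty acids start from the same acetyl-CoA. Both pathways are switched on by the SREBP transcription factors, which are made as membrane proteins of the endoplasmic reticulum. SCAP escorts them to the Golgi for cleavage when sterols are low, and the INSIG proteins hold SCAP back when sterols are high. SREBF2 is known mainly as an activator of cholesterol genes and SREBF1 of fatty acid genes.

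PHF5A had 2.31 FPKM (91 counts) in the knockdown library, against 9.07 FPKM (367 counts) in the control library. FPKM is the count scaled by gene length and library total. Scaled by library total alone (CPM), PHF5A was 3.93-fold lower in the knockdown, with an exact 95% interval of 3.12 to 5.0. All such intervals cover counting error only, not variation between cultures. Genes that reached 1 FPKM in either library are called expressed below. Log2 ratios are of FPKM + 1, knockdown over control, which understates changes of low genes. The 1 FPKM rule, the weight of the added 1 and FPKM ranks between genes depend on the gene length used. The length implied by count and FPKM was 1.28 kb for PMVK, 7.55 kb for DHCR7 and 16.9 kb for FDFT1. For TM7SF2 it was 11.9 kb and for KRT18 6.59 kb, although their entries span only 4.54 and 4.03 kb. The deposited lengths are thus not transcript lengths for all genes. FPKM levels, ranks and sums across genes carry this limit. Which other lengths match the transcripts present was not tested. CPM ratios of a gene do not use its length. The 8957 expressed genes had a median log2 ratio of -0.15, and members are read against it. In the knockdown library 6.2% of these genes were at least 2-fold lower and 2.53% at least 2-fold higher. Higher genes made up 29% of these calls as deposited, 49.1% after centring each ratio on the median and 7.08% with FPKM rescaled to an equal sum (TPM). The small RNAs RN7SL1, RN7SL2, RN7SL3, RN7SK, RPPH1 and RMRP held 16.3% of the knockdown counts and 10.5% of the control counts, which bears on every scaled value. The line's epithelial keratins KRT8, KRT18 and KRT19 were abundant in both libraries, at 370 to 1032 FPKM in the knockdown and 420 to 1046 FPKM in the control. EPCAM had 4.52 and CDH1 2.25 FPKM in the knockdown library, against 3.62 and 2.38 FPKM in the control library. CDX2, an intestinal transcription factor, had 3.16 FPKM in the knockdown and 6.90 FPKM in the control. CDX1 and KRT20 were at 0 counts in both libraries. VIL1 had 1 count in the knockdown and 0 in the control, and LGALS4 had 0 in the knockdown and 2 in the control.

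Transcripts of heart muscle were present in the control library and nearly missing from the knockdown library. All 16 heart markers were expressed by the rule, and 15 were at least 2-fold lower in the knockdown. They held 325 counts in the knockdown library and 100075 in the control library, which is 0.377% of the control counts, and their FPKM summed to 3.04 in the knockdown and 315 in the control. Among them 8, such as MYH6, MYH7 and PLN, were at 0 counts in the knockdown, and none was at 0 in the control. The 6 fibroblast markers summed to 2.66 FPKM in the knockdown and 9.27 FPKM in the control. These markers moved in the same direction as SREBF1, SREBF2, ACLY, SCD and the lower transport and oxidation genes described below, and their part in those results was not tested. In bulk RNA fewer cells of a type and less RNA per cell cannot be told apart. Both libraries are labelled HCT116. Where the heart transcripts of the control library came from was not tested and cannot be told from 1 library per group. The 6 adipocyte markers summed to 0.438 FPKM in the knockdown and 1.21 FPKM in the control, nearly all from CIDEC, which had 34 counts in the knockdown and 99 in the control. ADIPOQ, LEP and LPL were at 0 counts in both libraries. The 6 hepatocyte markers summed to 9.06 FPKM in the knockdown and 9.58 FPKM in the control, and the 5 blood markers to 3.06 FPKM in the knockdown and 4.28 FPKM in the control.

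Of the 30 genes, 24 were expressed. In the knockdown library 4 were at least 2-fold lower, where the background share is 6.2%, and none at least 2-fold higher, where it is 2.53%. The 4 were the transcription factor genes SREBF1 and SREBF2 and the fatty acid enzymes ACLY and SCD. The 16 expressed enzymes of the cholesterol route held 0 of these calls, 2 of the 4 expressed fatty acid enzymes were called and 2 of the 4 expressed SREBP regulators. At a background of 6.2%, 0 calls among 16 genes do not set the cholesterol route apart from all expressed genes. By CPM, 1 enzyme of that route, SC5D, was at least 2-fold lower. The 20 expressed enzymes together had a median log2 ratio of 0.00, against -0.50 for the expressed regulators and -0.15 for all expressed genes. At 1.5-fold, 5 genes were lower and 3 higher, where the background shares are 18.2% and 8.45%. These add ACACA on the lower side, with MVK, PMVK and TM7SF2 on the higher side. The remaining 6 genes stayed under 1 FPKM in both libraries: IDI1, GGPS1, HSD17B7, ELOVL6, INSIG2 and STARD4.

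**Figure D1:**
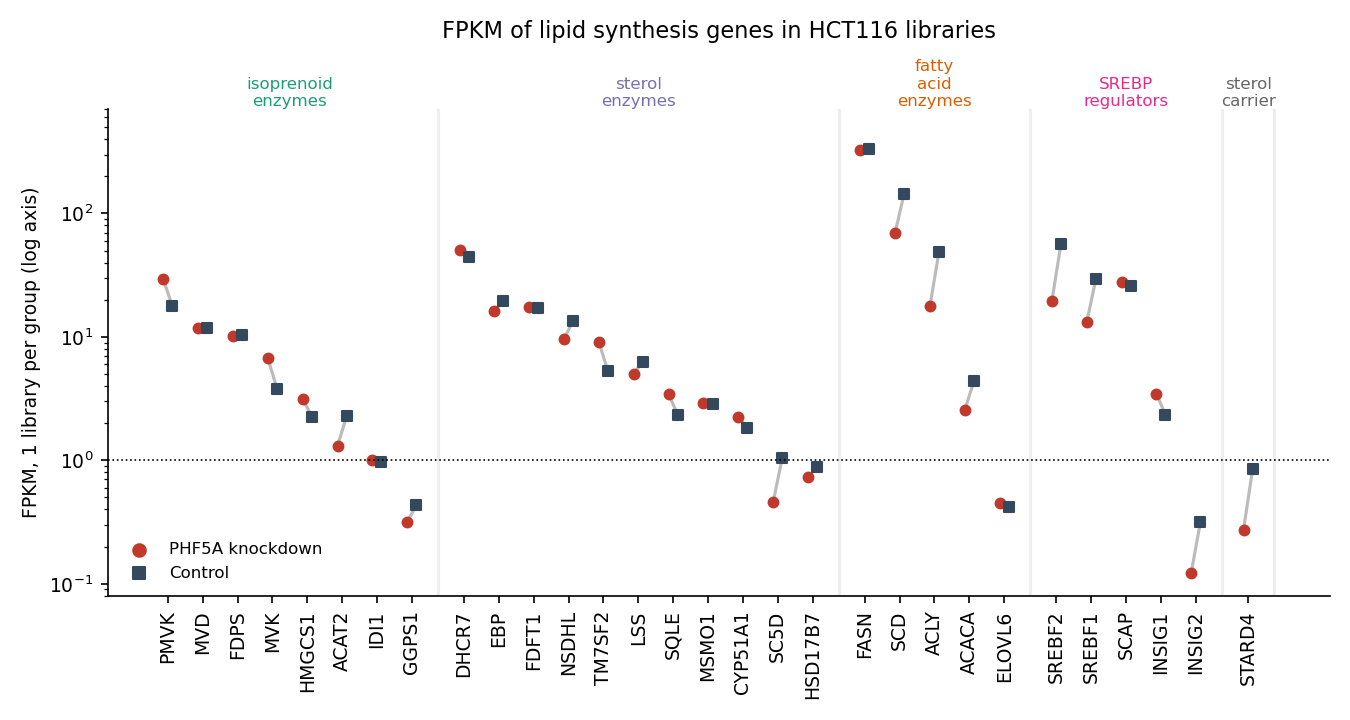
FPKM (log axis) of the 30 genes by role, with the PHF5A knockdown library as circles, the control library as squares and a dotted line at 1 FPKM. SREBF2 (19.6 and 56.5), ACLY (17.7 and 49.1) and SCD (69.6 and 145) show wide gaps, while FASN (325 and 335) and SCAP (28.0 and 25.9) nearly coincide.

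The SREBP regulators split. SREBF2 (chromosome 22, 41833079 to 41907308, GRCh38) had 19.6 FPKM in the knockdown library and 56.5 FPKM in the control library, from 6690 and 19735 counts. The CPM of SREBF2 was 2.88-fold lower with the PHF5A siRNA (interval 2.80 to 2.96). Its log2 ratio of -1.48 was the lowest among the expressed members and ranked 157th from the lowest of all expressed genes. SREBF2 lies on the same chromosome as PHF5A, with 364 kb between them.

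SREBF1 (chromosome 17, 17810399 to 17837002) had 13.1 FPKM in the knockdown library and 29.3 FPKM in the control library. The CPM ratio was 2.23-fold lower in the knockdown (interval 2.16 to 2.31), and the log2 ratio was -1.10. The gene overlaps RAI1 on the opposite strand, which had 1355 counts in the knockdown and 2290 in the control. Summed with RAI1, the CPM ratio was 0.473.

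SCAP, the escort protein, had 28.0 FPKM in the knockdown library and 25.9 FPKM in the control library, a CPM ratio of 1.08 (interval 1.05 to 1.12). INSIG1, itself known as an SREBP target, was higher in the knockdown, with 3.45 FPKM against 2.34 FPKM in the control and a CPM ratio of 1.47 (interval 1.31 to 1.66). INSIG2, its sterol-sensing paralogue, was rare in both libraries, with 29 counts (0.123 FPKM) in the knockdown and 76 (0.315 FPKM) in the control. Its CPM ratio was 0.391 (interval 0.246 to 0.607). The INSIG1 to INSIG2 ratio of FPKM was thus 28.0 in the knockdown library and 7.42 in the control library.

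Ratios between genes within a library do not depend on how the library is scaled. The SREBF2 to SCAP ratio of FPKM was 0.702 in the knockdown library and 2.18 in the control library. That is 3.11-fold lower in the knockdown, with a log-normal counting interval of 2.98 to 3.25. For SREBF1 to SCAP the ratio was 0.469 in the knockdown and 1.13 in the control, 2.41-fold lower (interval 2.31 to 2.53). By deposited FPKM, SCAP stood above SREBF2 in the knockdown library and below it in the control library. That order depends on the gene lengths used, while the fold change of the ratio does not. SREBF1 to SREBF2 stood at 0.668 in the knockdown and 0.518 in the control.

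The promoters of the 4 lower genes, and of the 3 genes at least 1.5-fold higher described below, are shown because SREBPs act at promoters through a sterol regulatory element, commonly beside a box for the factor NF-Y. Each line is the 250 bases before the transcription start in the RefSeq table (GRCh38.p14), 5′ to 3′ on the gene's strand. Capitals mark the letters TCACNCCAC, a form of the sterol regulatory element, and CCAAT, the NF-Y box, searched on both strands, where CCAAT on the opposite strand reads ATTGG. No 2 matches overlapped. The windows are chr22:41832855-41833104 on the plus strand for SREBF2, chr17:17836987-17837236 on the minus strand for SREBF1, chr17:41919023-41919272 on the minus strand for ACLY and chr10:100346983-100347232 on the plus strand for SCD. Those of the higher genes are chr12:109573544-109573793 on the plus strand for MVK, chr1:154936720-154936969 on the minus strand for PMVK and chr11:65111622-65111871 on the plus strand for TM7SF2. A further ACLY window, chr17:41918952-41919201, holds the same 2 CCAAT matches and is not shown. RefSeq starts can differ from those of the gene entries. The windows of ACLY, MVK and PMVK lie inside the coordinates given for these genes.
SREBF2: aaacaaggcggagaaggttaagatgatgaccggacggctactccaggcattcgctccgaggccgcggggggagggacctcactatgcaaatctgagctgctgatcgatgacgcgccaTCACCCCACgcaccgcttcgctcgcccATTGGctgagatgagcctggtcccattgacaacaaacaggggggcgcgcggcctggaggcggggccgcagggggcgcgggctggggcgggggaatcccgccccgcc
SREBF1: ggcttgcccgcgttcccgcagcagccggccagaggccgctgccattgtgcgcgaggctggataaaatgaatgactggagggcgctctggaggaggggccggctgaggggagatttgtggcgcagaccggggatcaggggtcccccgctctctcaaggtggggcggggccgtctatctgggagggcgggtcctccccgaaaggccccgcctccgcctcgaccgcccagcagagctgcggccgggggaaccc
ACLY: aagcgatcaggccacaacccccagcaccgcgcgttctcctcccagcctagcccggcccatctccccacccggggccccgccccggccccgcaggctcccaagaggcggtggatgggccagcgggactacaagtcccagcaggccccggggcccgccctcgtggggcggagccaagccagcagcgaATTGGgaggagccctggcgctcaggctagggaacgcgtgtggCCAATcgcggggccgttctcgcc
SCD: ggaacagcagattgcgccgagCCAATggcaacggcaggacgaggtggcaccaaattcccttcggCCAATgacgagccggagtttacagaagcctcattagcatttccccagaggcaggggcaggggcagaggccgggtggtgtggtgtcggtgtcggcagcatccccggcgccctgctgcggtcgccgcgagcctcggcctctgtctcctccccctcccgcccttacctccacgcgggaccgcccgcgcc
MVK: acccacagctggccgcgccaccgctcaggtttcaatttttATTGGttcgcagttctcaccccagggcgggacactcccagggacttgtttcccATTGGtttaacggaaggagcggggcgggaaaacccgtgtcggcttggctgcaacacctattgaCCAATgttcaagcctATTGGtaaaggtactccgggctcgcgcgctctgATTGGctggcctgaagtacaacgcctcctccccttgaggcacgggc
PMVK: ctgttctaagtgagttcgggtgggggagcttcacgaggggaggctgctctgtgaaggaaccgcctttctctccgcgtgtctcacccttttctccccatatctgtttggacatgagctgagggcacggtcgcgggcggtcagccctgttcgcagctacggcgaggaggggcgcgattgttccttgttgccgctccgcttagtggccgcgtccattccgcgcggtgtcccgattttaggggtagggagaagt
TM7SF2: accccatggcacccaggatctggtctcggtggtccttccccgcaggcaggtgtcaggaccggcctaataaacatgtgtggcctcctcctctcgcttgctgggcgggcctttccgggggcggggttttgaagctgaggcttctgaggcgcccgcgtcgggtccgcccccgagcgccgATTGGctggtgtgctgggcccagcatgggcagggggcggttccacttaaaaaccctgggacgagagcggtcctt

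RefSeq windows were found for 26 of the 30 genes, and not for ACAT2, FASN, FDFT1 and SQLE. TCACNCCAC was present in 1 of the 26, SREBF2, where it starts 133 bases before the transcription start and is followed by a reversed CCAAT box 106 bases before it. Among the 27305 genes given there, 1.09% held TCACNCCAC. CCAAT was more common among these genes: 20 of the 26 held it in a window, against 37.0% of the genes of the table. MVK had 5 copies, SCD and ACLY 2 each, and TM7SF2 and SREBF2 1 each. The windows of SREBF1 and PMVK held neither run of letters. The lower and the higher genes were thus not set apart by CCAAT, and a match in a window is a description of the letters only. Other forms of the element and other regions were not searched, so a window without a match does not show that an element is lacking.

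By FPKM, the 5 fatty acid enzymes ranged from the most abundant member to one of the rarest. ACLY (chromosome 17, 41866908 to 41930542), which splits citrate into cytosolic acetyl-CoA for both pathways, had 17.7 FPKM in the knockdown library and 49.1 FPKM in the control library. Its CPM in the knockdown was 2.77-fold lower (interval 2.67 to 2.87), and its log2 ratio was -1.42. SCD (chromosome 10, 100347124 to 100364834), the desaturase that makes oleate from stearate, had 69.6 FPKM in the knockdown and 145 FPKM in the control. That was 2.08-fold lower (interval 2.03 to 2.13), with a log2 ratio of -1.05 that lies just past the 2-fold line.

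ACACA, which makes malonyl-CoA, had 2.56 FPKM in the knockdown library and 4.36 FPKM in the control library. Its log2 ratio of -0.59 passed 1.5-fold but not 2-fold, and by CPM it was 1.70-fold lower (interval 1.60 to 1.82). FASN, the synthase that builds palmitate, was the most abundant of the 30 genes, with 325 FPKM in the knockdown and 335 FPKM in the control. The CPM ratio was 0.969 (interval 0.961 to 0.977), so FASN stayed above the median log2 ratio of expressed genes, at -0.05. FASN made up 49.1% of the summed FPKM of the 30 genes in the knockdown library and 41.2% in the control library. ELOVL6, which lengthens palmitate, had 0.449 FPKM in the knockdown and 0.418 FPKM in the control, and its CPM interval of 0.833 to 1.39 included 1.

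SCD, ACLY and ACACA were lower in proportion to FASN, and for ELOVL6 no difference in proportion was detectable. The SCD to FASN ratio of FPKM was 0.214 in the knockdown library and 0.432 in the control library, 2.02-fold lower (interval 1.97 to 2.07). ACLY to FASN was 0.0546 in the knockdown and 0.146 in the control, 2.68-fold lower (interval 2.59 to 2.78). ACACA to FASN was 1.65-fold lower (interval 1.55 to 1.76). The ratio of ELOVL6 to FASN in the knockdown was 1.11 times that in the control, with an interval of 0.866 to 1.42 that included 1. These differences hold under any scaling of the libraries. Summed over the 5 enzymes, FPKM was 415 in the knockdown library and 534 in the control library.

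**Figure D2:**
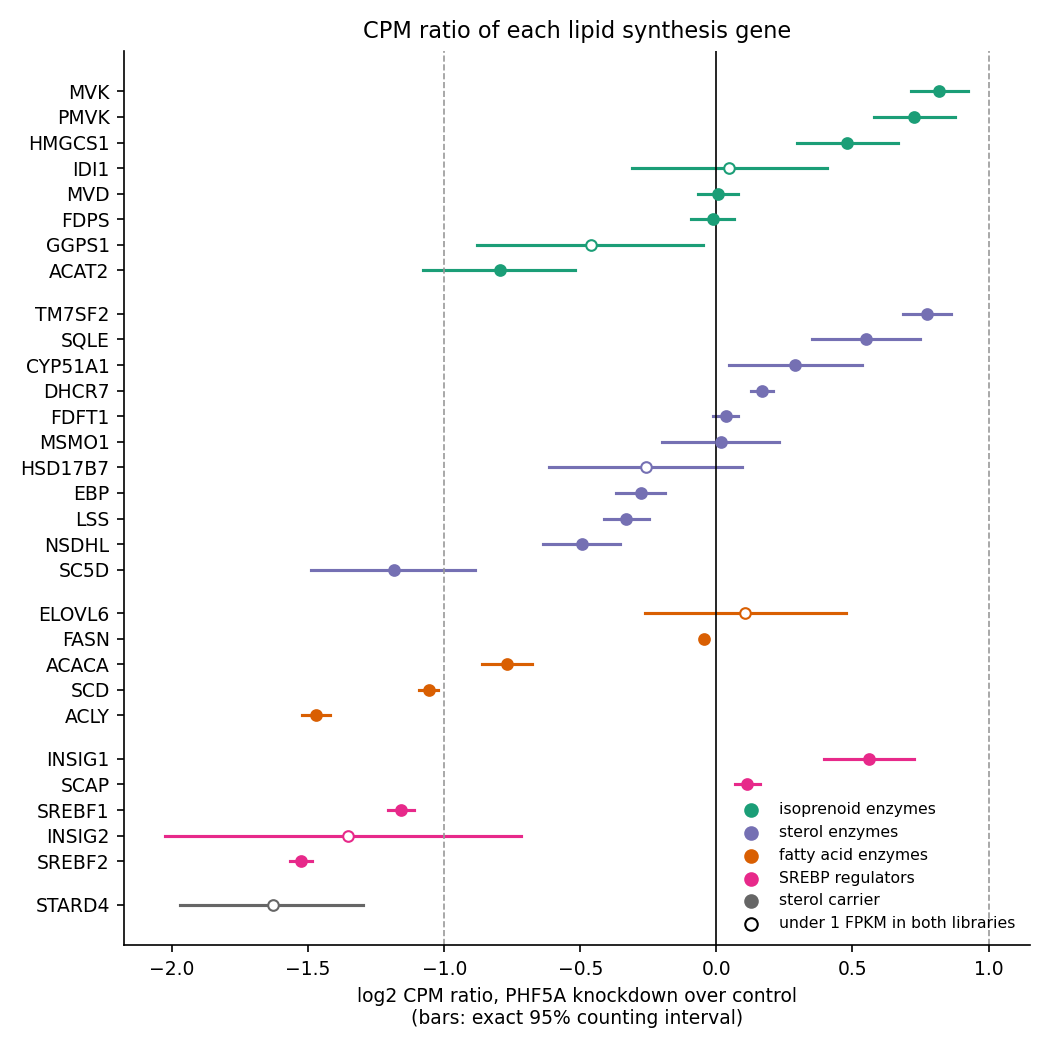
Log2 CPM ratio of each gene, PHF5A knockdown over control, by role, with exact 95% counting intervals as bars and dashed lines at 2-fold. Open points were under 1 FPKM in both libraries. Of the 19 enzymes of the cholesterol route, 7 have intervals above 0, 6 below it and 6 include it. Of the 5 fatty acid enzymes, 4 have intervals below 0. Among these 4, FASN (CPM ratio 0.969) lay above the median log2 ratio of all expressed genes. That median was itself below 0, at -0.20 by CPM with a prior of 0.5. Intervals cover counting error only, so genes with many counts exclude 0 at small differences.

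Among the enzymes of the mevalonate and isoprenoid steps, HMGCS1, MVK and PMVK were higher in the knockdown. MVK (chromosome 12, 109573255 to 109598117), which phosphorylates mevalonate, had 6.72 FPKM in the knockdown library and 3.81 FPKM in the control library. The CPM ratio was 1.76 (interval 1.64 to 1.90). PMVK (chromosome 1, 154924734 to 154936991), which adds the next phosphate, had 29.3 FPKM in the knockdown and 17.7 FPKM in the control, a ratio of 1.65 (interval 1.49 to 1.84). Their log2 ratios were 0.68 and 0.70, past 1.5-fold. HMGCS1, which condenses acetoacetyl-CoA with acetyl-CoA, had 3.16 FPKM in the knockdown and 2.26 FPKM in the control, a CPM ratio of 1.40 (interval 1.23 to 1.59).

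MVD, the decarboxylase that follows PMVK, had 11.9 FPKM in both libraries and a CPM ratio of 1.0 (interval 0.955 to 1.06). FDPS, which makes farnesyl diphosphate, had 10.2 FPKM in the knockdown and 10.3 FPKM in the control. For IDI1, the isomerase between them, the values were 0.999 FPKM in the knockdown and 0.967 FPKM in the control. GGPS1, which extends farnesyl to geranylgeranyl diphosphate, had 0.315 FPKM in the knockdown and 0.434 FPKM in the control, a CPM ratio of 0.726 (interval 0.543 to 0.967). ACAT2, the cytosolic thiolase of the first step, was lower, with 1.31 FPKM in the knockdown against 2.28 FPKM in the control and a ratio of 0.576 (interval 0.474 to 0.697). ACAT2 and GGPS1 are uncertain, since TCP1 and SOD2 overlap the first and ARID4B the second on the opposite strand, and whether reads were counted by strand is not stated in the sources used here. Over the 6 expressed of the 8 genes the median log2 ratio was 0.18, and 5 lay above the median of all expressed genes.

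The 11 enzymes from squalene to cholesterol showed no common direction. DHCR7, which carries out the last reduction to cholesterol, was the most abundant of them by FPKM. It had 50.3 FPKM in the knockdown library and 44.8 FPKM in the control library. Its CPM ratio was 1.12 (interval 1.09 to 1.16). FDFT1, squalene synthase, had 17.4 FPKM in the knockdown and 17.0 FPKM in the control, with an interval of 0.992 to 1.06. SQLE, which oxidises squalene and is a control point of the pathway, had 3.44 FPKM in the knockdown and 2.35 FPKM in the control, a CPM ratio of 1.46 (interval 1.28 to 1.68).

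CYP51A1, the lanosterol demethylase, had 2.24 FPKM in the knockdown and 1.83 FPKM in the control, a CPM ratio of 1.22 (interval 1.03 to 1.45). Its pseudogene CYP51A1P2 had 37 counts in the knockdown and 15 in the control, and CYP51A1P1 had 27 in the knockdown and 7 in the control. MSMO1, which starts the removal of a pair of methyl groups, had 2.91 FPKM in the knockdown and 2.88 FPKM in the control. TM7SF2, a sterol reductase, had 9.03 FPKM in the knockdown and 5.28 FPKM in the control, a CPM ratio of 1.71 (interval 1.61 to 1.82). It overlaps VPS51 on the same strand, which had 5053 counts in the knockdown and 7554 in the control. The summed CPM ratio was 0.872 (interval 0.846 to 0.898). VPS51 held most of the summed counts, so this sum does not decide whether TM7SF2 itself was higher. How reads were shared between the overlapping entries was not tested, and the value of TM7SF2 is uncertain.

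LSS, NSDHL, EBP and SC5D were lower in the knockdown library. LSS, which closes the sterol rings, had 5.01 FPKM in the knockdown and 6.31 FPKM in the control, a CPM ratio of 0.795 (interval 0.750 to 0.842). NSDHL, a sterol dehydrogenase, had 9.60 FPKM in the knockdown and 13.5 FPKM in the control (ratio 0.710, interval 0.643 to 0.783). EBP, the sterol isomerase, had 16.2 FPKM in the knockdown and 19.7 FPKM in the control (ratio 0.824, interval 0.774 to 0.878).

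SC5D, a sterol desaturase near the end of the route, had 133 counts (0.458 FPKM) in the knockdown library and 310 (1.04 FPKM) in the control library. By CPM it was 2.27-fold lower (interval 1.85 to 2.81), although its log2 ratio of FPKM + 1 was -0.49. HSD17B7, which acts with NSDHL, had 0.731 FPKM in the knockdown and 0.875 FPKM in the control, and its interval of 0.653 to 1.07 included 1. Over the 10 expressed enzymes the median log2 ratio was 0.02, with 6 above and 4 below the median of all expressed genes. Summed FPKM of the 11 was 117 in the knockdown and 116 in the control.

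STARD4, which carries cholesterol between membranes, had 99 counts (0.274 FPKM) in the knockdown library and 314 (0.848 FPKM) in the control library. It was 3.09-fold lower by CPM (interval 2.46 to 3.92), by point value the largest CPM difference among the 30 genes. That interval includes the values of SREBF2 (2.88-fold) and ACLY (2.77-fold) and overlaps the interval of INSIG2. Read by CPM without the added 1 FPKM, 7 of the 30 genes passed 2-fold on the lower side and none on the higher side. They were SREBF1, SREBF2, ACLY, SCD, SC5D, INSIG2 and STARD4. Among the 12381 genes of at least 50 counts in the higher library, 16.6% were at least 2-fold lower and 5.07% at least 2-fold higher on that measure. A share of 7 in 30 is nearer to that background than 4 in 24 is to the 6.2% of the FPKM scale.

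Over the 19 enzymes of the route together, the CPM ratio of summed counts was 1.08 (interval 1.06 to 1.09). DHCR7 and FDFT1 held 17450 of these 35833 counts in the knockdown library and 16597 of 34142 in the control library. Without TM7SF2, whose value is uncertain, the ratio was 1.04 (interval 1.03 to 1.06). Over the 5 regulators it was 0.528 (interval 0.519 to 0.537), where SREBF1 and SREBF2 carry the difference.

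The 4 lower genes were already among the more abundant of the 30 in the control library, between 29.3 and 145 FPKM, and lay between 13.1 and 69.6 FPKM in the knockdown library. By control FPKM they ranked 2, 3, 4 and 6 of the 30, with FASN at rank 1 and DHCR7 at rank 5 not called. In GENCODE release 29 the largest exon number of any transcript is 6 for SCD, 20 for SREBF1, 22 for SREBF2 and 29 for ACLY. For the other 20 expressed genes this number runs from 5 to 56 with a median of 10. ACACA has the most, 56, and FASN has 43. The 30 genes lie on 16 chromosomes.

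Other genes of lipid metabolism are given for comparison, with up to 3 per list named by the size of their log2 ratio. Calls in these lists stand beside background shares of 6.2% lower and 2.53% higher on the FPKM + 1 scale. By CPM, among genes of at least 50 counts, the shares are 16.6% lower and 5.07% higher. For SREBP processing and sterol sensing, 11 of 13 genes were expressed, with a median of -0.16, 1 at least 2-fold higher and 0 lower. NR1H2, the sterol receptor LXR beta, had 15.9 FPKM in the knockdown library and 7.02 FPKM in the control library (CPM ratio 2.27, interval 2.14 to 2.41). MBTPS1, the protease that first cuts SREBPs, had 2.40 FPKM in the knockdown library and 3.41 FPKM in the control library.

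Enzymes that use isoprenoids had 7 of 12 genes expressed, a median of -0.49 and all 7 below the median of expressed genes, of which 1 was at least 2-fold lower. FNTB, the beta subunit of protein farnesyltransferase, had 6.12 FPKM in the knockdown library and 13.7 FPKM in the control library (log2 ratio -1.05). It overlaps MAX and the read-through gene CHURC1-FNTB and is uncertain for that reason. RABGGTA, a subunit of the enzyme that prenylates Rab proteins, had a log2 ratio of -0.64 and DHDDS, of dolichol synthesis, -0.51.

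The list of other fatty acid enzymes and cofactors had 18 of 26 genes expressed, a median of -0.27 and none past 2-fold on the FPKM + 1 scale. By CPM 1 (ME1) was at least 2-fold higher and 3 (FADS2, ACACB and HACD1) at least 2-fold lower. ME1, which supplies NADPH, had 5.37 FPKM in the knockdown library and 2.57 FPKM in the control library (log2 ratio 0.84). ACSS2, which makes acetyl-CoA from acetate, had a log2 ratio of -0.57 and the desaturase FADS2 -0.59. FADS2 overlaps FADS1 and FEN1 and is uncertain.

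Sterol uptake, transport and storage had 10 of 15 genes expressed and a median of -0.30. On the FPKM + 1 scale 2 of the 10 were at least 2-fold lower (background 6.2%), and by CPM 5 of the 15 (background 16.6%). NPC2, which binds cholesterol in lysosomes, had 5.66 FPKM in the knockdown library and 17.0 FPKM in the control library (CPM ratio 0.334, interval 0.307 to 0.363). ABCG1, a sterol exporter and known LXR target, had 55 counts in the knockdown and 428 in the control (ratio 0.132, interval 0.0976 to 0.175). LRP1, a lipoprotein receptor, had a log2 ratio of -0.47 and overlaps STAT6.

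Lipid droplet and glycerolipid genes had 11 of 14 expressed, a median of -0.32 and none past 2-fold on the FPKM + 1 scale. By CPM 1 (MGLL) passed 2-fold on the higher side and 2 (LIPE and LPIN2) on the lower side. Hormone-sensitive lipase LIPE (-0.81), the droplet protein PLIN3 (-0.60) and the acyltransferase AGPAT1 (0.59) had the largest log2 ratios. Fatty acid oxidation had 12 of 16 expressed and a median of -0.41. On the FPKM + 1 scale 1 of the 12 was at least 2-fold lower (background 6.2%), and by CPM 4 of the 15 with at least 50 counts (background 16.6%). The call on the FPKM + 1 scale was ACADS, a short-chain acyl-CoA dehydrogenase, with 5.53 FPKM in the knockdown library and 14.3 FPKM in the control library. CPT1A, which admits fatty acids to mitochondria, had a log2 ratio of -0.97 and HADHA, of the trifunctional protein, -0.80.

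**Figure D3:**
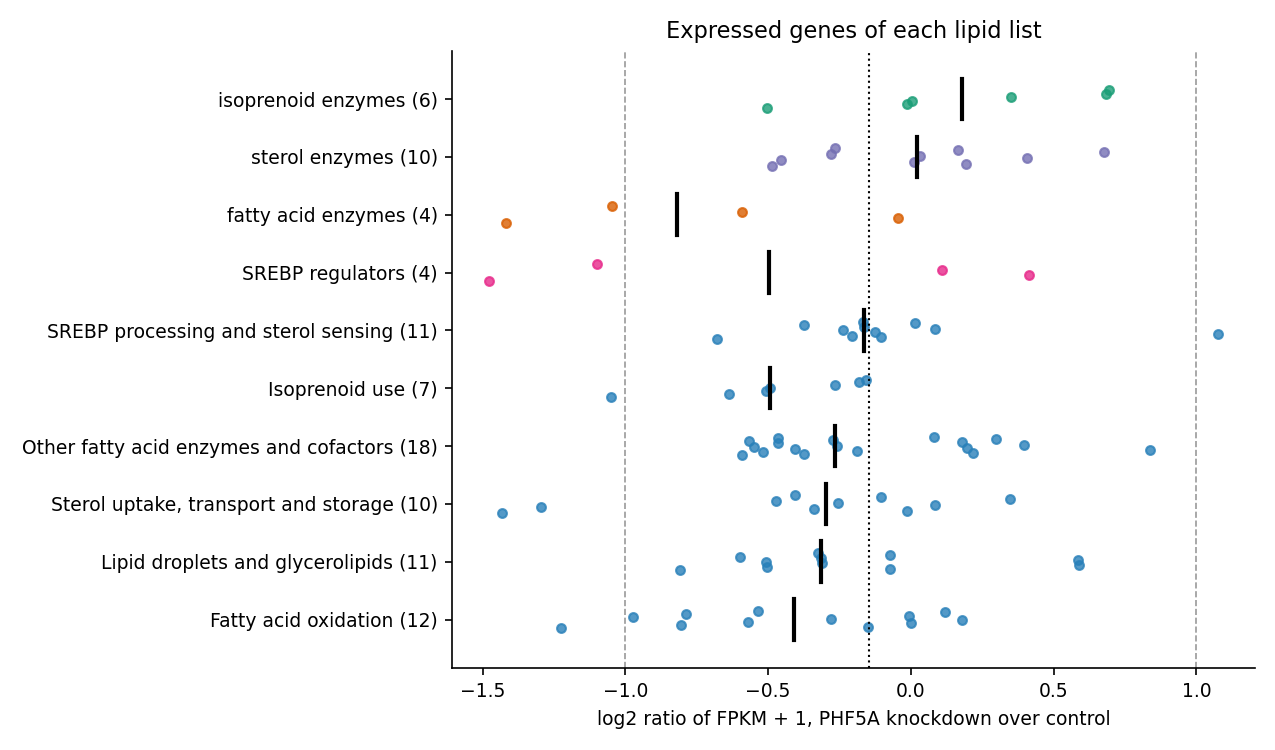
Log2 ratio of FPKM + 1, PHF5A knockdown over control, of the expressed genes of each list (number in brackets), with black bars at list medians, a dotted line at the median of all expressed genes and dashed lines at 2-fold. Among these 10 lists the isoprenoid (0.18) and sterol enzymes (0.02) have the highest medians and the fatty acid enzymes (-0.82) the lowest.

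Each of the 4 enzyme and regulator lists kept its side of the median of expressed genes under the settings tried. For the scalings this follows largely from their moving all genes alike. The margin was small for the sterol enzymes at a minimum of 5 FPKM (0.02). It was also small with no filter for the isoprenoid (0.06) and sterol enzymes (0.05). The sign of the log2 ratio did not hold for all lists. With TPM rescaling the median of expressed genes was -0.47, and those of the isoprenoid and sterol enzymes were -0.20 and -0.32, still above it. SREBF2 and ACLY were at least 2-fold lower under each scaling. SREBF1 and SCD did not reach 2-fold after median centring and upper-quartile scaling, nor did SCD with the small RNAs taken out of the total. MVK, PMVK, HMGCS1, SQLE and INSIG1 kept log2 ratios above 0 in all scalings. Those of DHCR7, CYP51A1, FDFT1, SCAP, MVD, MSMO1, IDI1 and ELOVL6 lay below 0 with TPM rescaling, and those of FASN, FDPS, GGPS1 and HSD17B7 lay above 0 after median centring.

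**Figure D4:**
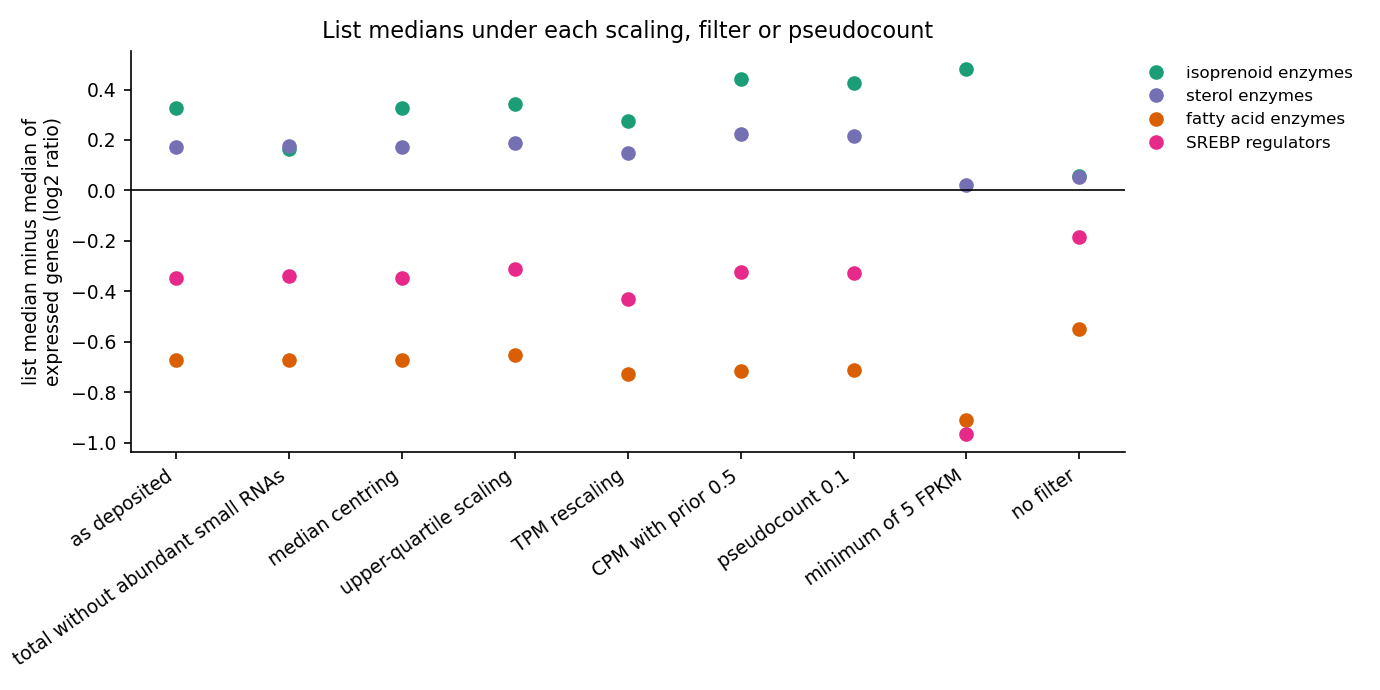
Median log2 ratio (PHF5A knockdown over control) of the expressed genes of each list minus that of all expressed genes, under 9 settings. The isoprenoid and sterol enzymes lie above 0 and the fatty acid enzymes and SREBP regulators below it in each. The sterol enzymes are only 0.02 above 0 at a minimum of 5 FPKM.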

How the data were processed

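RNA of HCT116 cells transfected with a PHF5A siRNA or a control siRNA was made into TruSeq Stranded Total RNA libraries, per the labels' protocols, with 1 library per group. HISAT2 2.0.4, Cuffdiff and GRCh38 (hg38) were named in the submitters' processing notes. The counting tool, annotation, strand setting and handling of multiply matching reads are not named in the sources used here. The deposited table held a count and an FPKM value per gene and library, per the file headers. FPKM as deposited equals the count over 1 fixed gene length and the library total, within 0.0241%. Of 50869 lines, 2 belonging to 1 broken entry were left out.

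Log2 ratios used a pseudocount of 1 FPKM, expressed genes reached 1 FPKM in either library, and calls were by size at 2-fold. CPM ratios from counts carry exact conditional binomial (Clopper-Pearson) intervals of 95%, and ratios of ratios a log-normal one. Library totals were 25897412 (knockdown) and 26552789 (control) counts. Exon numbers and strands come from GENCODE release 29 and promoters from RefSeq. All 30 members were named, with PHF5A and up to 3 expressed genes of each of 6 companion lists by absolute log2 ratio, of which 1 is not reported here. Members and lists were chosen with earlier results of these data known. Alternatives were pseudocounts, filters, scalings, a 1.5-fold threshold, copies and gene types. The calls and intervals were tested on simulated data. Computations ran in Python 3.11.15 with scipy 1.17.1, numpy 2.4.6 and pandas 2.3.3, and matplotlib 3.10.9 drew the plots.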

Additional observations from a re-analysis of the deposited data

How the results depend on the processing

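No paired analysis was possible because each group held a single library. The 4 lower members were also called with pseudocounts of 0.1 (with SC5D as well) and 0.5, with no filter, at 5 FPKM, with TPM rescaling, with CPM and a prior of 0.5 (with SC5D as well) and with copies summed. They were 2 (SREBF2 and ACLY) with median centring and 2 with upper-quartile scaling, 3 (without SCD) with the small RNAs taken out of the total, and 7 by CPM at 50 counts, a rule chosen after seeing the data. At 1.5-fold 3 members were higher and 5 lower.

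Over all expressed genes, a pseudocount of 0.1 gave 469 higher and 1129 lower calls. The counts of higher and lower calls were 131 and 309 at 5 FPKM, 345 and 358 with median centring, 107 and 1405 with TPM rescaling, 505 and 1239 with CPM and a prior of 0.5, 757 and 1631 at 1.5-fold, and 628 and 2055 by CPM at 50 counts. Upper-quartile scaling gave 346 higher and 412 lower, and protein-coding genes alone 148 higher and 450 lower. 

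The fatty acid median of -0.82 became -0.90 (pseudocount 0.1), -0.59 (no filter), -1.05 (5 FPKM), -0.67 (median centring and upper-quartile scaling), -1.20 (TPM), -0.74 (small RNAs out) and -0.91 (CPM). The regulator median of -0.50 became -0.23 (no filter), -1.10 (5 FPKM), -0.35 (median centring), -0.33 (upper quartile), -0.90 (TPM) and -0.41 (small RNAs out); it rests on 3 to 5 genes that split. Median centring and upper-quartile scaling put the sterol enzymes at 0.17 each and all enzymes at 0.14 and 0.15. The sterol median was -0.12 at 5 FPKM. TPM put all expressed genes at -0.47, isoprenoid enzymes at -0.20, sterol enzymes at -0.32 and all enzymes at -0.38. PHF5A was -1.98 with TPM and -1.97 with CPM. Shifts by the scalings are set by their construction.

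Of 300 values of single members under these alternatives, 86 were identical to the reported value, mostly because a filter cannot change a ratio. Of the other 214, 131 moved by less than the half-width of their counting interval, 47 moved up and 36 down by more, and no called member changed sign. Depth limits INSIG2, GGPS1, STARD4, HSD17B7, ELOVL6 and IDI1 most.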
